A study of Mus musculus with 6 samples.

Results

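The 4 classical families of axon guidance molecules, namely semaphorins with plexins and neuropilins, ephrins with Eph receptors, Slits with Robos and netrins with their receptors, were examined in neural progenitors made from mouse embryonic stem cells (mESCs) of lines labelled -/- and flox/flox for the gene Dmrta2. Members were the protein-coding genes of these families by symbol in GENCODE release M21, matched to the deposited table by Ensembl identifier. This gave 67 genes of 48526 in the table and of 21760 protein-coding ones: 33 ligands and 34 receptors. By family there were 20 semaphorins, 11 plexins and neuropilins, 8 ephrins, 14 Eph receptors, 6 Slits and Robos and 8 netrins and netrin receptors. Ntn3, which the rule also names, was not analysed here.

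Expression was measured by RNA sequencing in 3 libraries of an mESC line labelled -/- for Dmrta2 and 3 of a line labelled flox/flox, the control, whose Dmrta2 alleles carry recombinase sites. Dmrta2 encodes a zinc finger transcription factor of dorsal telencephalic progenitors. Each genotype is 1 line, so genotype and line cannot be told apart, and p-values measure the spread between samples of a line. Both lines were differentiated in the same N2B27 medium, with the BMP receptor inhibitor LDN193189 (100 nM) and the activin and TGF-beta receptor inhibitor SB431542 (10 µM) up to day 4, the Wnt pathway inhibitor XAV939 (1 µM) up to day 6 and the Hedgehog pathway inhibitor cyclopamine (1 µM) from day 2 to day 10. Cells were replated on day 5 onto poly-D-lysine and laminin, and RNA was extracted on day 8 in both groups.

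As background, guidance cues are ligands, secreted or displayed on cell surfaces, that steer growth cones and migrating cells by attraction or repulsion. Secreted class 3 semaphorins act through neuropilins, which bind the ligand, and plexins, which signal. Ephrins and Eph receptors signal at contacts between cells and set boundaries, Slits repel axons through Robo receptors, and netrin-1 attracts axons through DCC or repels them through UNC5 receptors. In the developing forebrain these genes are used both by progenitors, which lay down the cues, and by the neurons that read them.

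The table held between 24565560 and 39646793 counts per library. Levels are given in CPM (counts relative to the library total, after TMM scaling) and, for comparisons between genes, in TPM, which also divides by the length of each gene's exons. Values of a group are listed in the order of its libraries A, B and C. Dmrta2 itself measured 409, 414 and 439 CPM in -/- libraries and 85.2, 75.1 and 79.2 CPM in flox/flox libraries, which does not follow the label. The count covers the whole gene and says nothing of a deleted part, so directions below are those of the libraries labelled -/- against flox/flox. The 12 progenitor markers summed to between 2000 and 2060 TPM in -/- libraries and between 1920 and 2170 TPM in flox/flox libraries, but 6 of them rose, among them Notch1 and Fabp7, and 4 fell, namely Sox2, Nes, Vim and Hes1 (3 and 1 without -/- B, 4 and 2 without flox/flox B). The 12 neuron markers summed to 1570, 1770 and 2560 TPM in -/- libraries and 973, 1200 and 1530 TPM in flox/flox libraries. Of the neuron markers 11 of 12 rose (4 without flox/flox B, 6 without flox/flox A), and neurons were thus present beside the labelled progenitors.

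Of the 67 genes, 66 had enough reads to be tested, and 43 of them (65.2%) changed in the libraries labelled -/-, where 35.3% of all 20549 genes tested did. Among protein-coding genes averaging 1 CPM or more the share was 41.4%. Differences of at least 2-fold were called for 12 members upward and 9 downward, where 11.4% of all genes passed both criteria. All -/- libraries lay on 1 side of all flox/flox libraries for 47 of 66 members and for 51.0% of all genes. The changes went both ways, with 26 members higher and 17 lower, against 17.9% higher and 17.4% lower over all genes. Without single libraries these counts lay between 20 and 30 higher and between 13 and 15 lower. When column letters were blocked, 34 were higher and 17 lower, and 41.5% of all genes were called. The median log2 difference of the members was 0.32 and their median absolute difference 0.66, where all tested genes had medians of -0.0025 and 0.26. Ligands divided evenly, with 11 higher and 11 lower of 33, while of 33 receptors tested 15 were higher and 6 lower. Calls are adjusted p-values under 0.05 in edgeR's quasi-likelihood test, adjusted by the Benjamini-Hochberg method over all genes tested, and "rose" and "fell" denote such calls. In bulk RNA, fewer cells of a type and less RNA per cell cannot be told apart. The remaining member, Plxnb3, a plexin known from oligodendrocytes, had 10 reads over the 6 libraries.

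**Figure D1:**
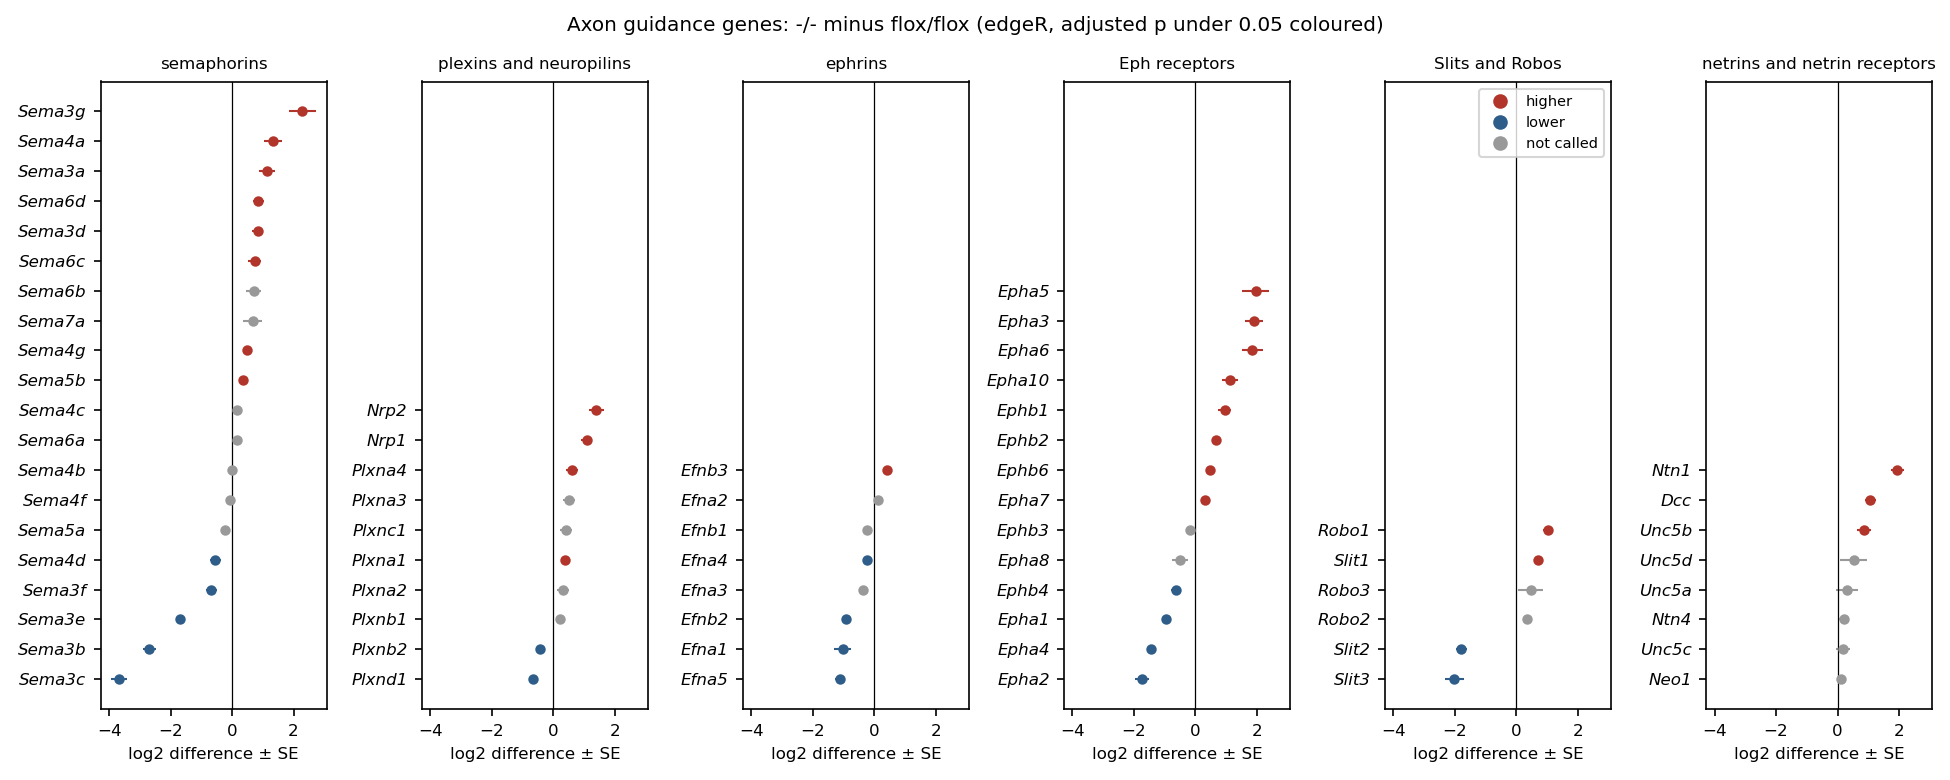
Log2 difference (-/- minus flox/flox) with its standard error for the 66 members tested, by family, in edgeR. Red and blue points are the 26 genes that rose and the 17 that fell, grey points the 23 that did not pass, and the range runs from -3.68 for Sema3c to 2.29 for Sema3g.

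Semaphorins changed in both directions. All 7 class 3 genes, which encode the secreted semaphorins, changed, 4 of them downward and 3 upward. Each of the 4 that fell had a higher mean TPM in flox/flox libraries than any of the 3 that rose. Sema3c, which encodes a ligand of both neuropilins (plus strand of chromosome 5, 17574281 to 17730268, GRCm38), was at 16.9, 11.9 and 10.8 CPM in -/- libraries and 210, 176 and 122 CPM in flox/flox libraries. The groups lay far apart, and the difference of -3.68 ± 0.25 (log2, SE), or 12.8-fold, was the largest in size among the 66 members tested (adjusted p = 0.000325, edgeR). Sema3b, like Sema3f a repellent that acts through neuropilin-2, had 1.63, 1.28 and 1.09 CPM in -/- libraries and 9.83, 9.61 and 6.65 CPM in flox/flox libraries, a fall of 6.47-fold (adjusted p = 0.000382, edgeR).

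Sema3e, whose product binds plexin-D1 without a neuropilin, was at 4.57, 3.57 and 3.27 CPM in -/- libraries and 12.4, 12.5 and 12.2 CPM in flox/flox libraries, so that the control libraries were nearly equal and all -/- libraries were lower (-1.69 ± 0.14, log2, SE). Sema3f read 12.2, 13.1 and 17.3 CPM in -/- libraries and 26.1, 23.3 and 18.2 CPM in flox/flox libraries. Its groups were close at -/- C and flox/flox C, and the fall of -0.67 was not called without -/- A, -/- B, flox/flox A or flox/flox B (adjusted p between 0.0630 and 0.0808, edgeR). The 3 class 3 genes that rose were all scarce. Sema3g had 0.737, 1.11 and 1.72 CPM in -/- libraries and 0.203, 0.152 and 0.359 CPM in flox/flox libraries. Sema3a, the founding growth cone repellent of the class, had 3.33, 3.35 and 5.52 CPM in -/- libraries and 1.82, 1.44 and 2.19 CPM in flox/flox libraries, a rise of 1.15 on the log2 scale that was not called without flox/flox B (adjusted p = 0.0542, edgeR). For Sema3d the values were 4.50, 5.05 and 5.31 CPM in -/- libraries and 3.21, 2.96 and 2.07 CPM in flox/flox libraries.

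Added up per length, class 3 semaphorins came to 13.1, 12.3 and 14.0 TPM in -/- libraries and 81.6, 71.1 and 51.7 TPM in flox/flox libraries. Sema3c supplied between 22.1% and 36.6% of that sum in -/- libraries and between 71.9% and 76.7% in flox/flox libraries. Sema3f supplied between 36.2% and 48.9% in -/- libraries and between 13.1% and 14.7% in flox/flox libraries. It led the class in -/- B and C and lay just under Sema3c in -/- A. The class therefore differed in amount and in make-up.

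The membrane-bound semaphorins of classes 4 to 7 rose in 5 of 13 genes and fell in 1. Over all genes tested, 17.9% rose and 17.4% fell, and 41.4% of expressed protein-coding genes changed in either direction. The transmembrane Sema4a read 4.73, 6.04 and 10.4 CPM in -/- libraries and 2.60, 2.74 and 3.03 CPM in flox/flox libraries (1.33 ± 0.29, log2, SE). Sema6d, a ligand of plexin-A1, was at 26.3, 27.5 and 41.6 CPM in -/- libraries and 18.8, 15.9 and 18.2 CPM in flox/flox libraries. Sema6c, another transmembrane semaphorin, rose by 0.74 on the log2 scale. In each of these the highest library was -/- C. Sema4g rose by 0.47 and Sema5b, a transmembrane semaphorin with thrombospondin repeats, by 0.35 on the log2 scale. Sema5b was among the most abundant semaphorins, at 38.8, 41.7 and 47.5 TPM in -/- libraries and 31.6, 33.0 and 40.6 TPM in flox/flox libraries. Its call was lost without -/- B, -/- C, flox/flox A or flox/flox B (adjusted p between 0.0770 and 0.137, edgeR), and that of Sema6c without -/- B, flox/flox A or flox/flox B (between 0.0582 and 0.109).

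Sema4d, the ligand of plexin-B1, was the membrane-bound semaphorin that fell, with 25.1, 24.1 and 16.9 CPM in -/- libraries and 27.6, 30.7 and 38.8 CPM in flox/flox libraries. That fall of -0.55 passed narrowly (adjusted p = 0.0459, edgeR) and did not pass when column letters were blocked (0.0544) or without any 1 library other than flox/flox A (between 0.05 and 0.122). Sema4c, a ligand of plexin-B2 and the most abundant semaphorin per length over all libraries, did not pass. It was at 35.2, 41.8 and 45.6 TPM in -/- libraries and 32.8, 35.4 and 46.5 TPM in flox/flox libraries, and the groups overlapped. By group mean, Sema5b led in -/- libraries (42.7 TPM, Sema4c 40.9 TPM) and Sema3c in flox/flox libraries (51.0 TPM, Sema4c 38.2 TPM). The other members that did not pass were Sema4b, Sema4f, Sema5a, Sema6a, Sema6b and Sema7a, with log2 differences between -0.22 and 0.70. Of these, Sema6a, Sema6b and Sema7a, a membrane-anchored ligand of plexin-C1, passed when column letters were blocked (adjusted p = 0.0477, 0.00387 and 0.00274, edgeR). Without flox/flox C, Sema6b and Sema7a passed (0.0375 and 0.0187), as did Sema6b without -/- A (0.0398), with no filter (0.0356) and with DESeq2 (0.0254), and Sema5a without flox/flox B (0.0232). In the whole family 8 rose and 5 fell, with 5 and 4 without flox/flox B, 9 and 3 without -/- A and 6 and 3 without -/- B.

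Of the receptors for semaphorins, both neuropilins rose. Nrp2 (chromosome 1, 62703285 to 62818695, plus strand) had 116, 131 and 196 CPM in -/- libraries and 67.0, 38.3 and 61.1 CPM in flox/flox libraries. Nrp1 (chromosome 8, 128358604 to 128503363, plus strand) had 36.4, 38.2 and 53.0 CPM in -/- libraries and 19.0, 17.9 and 23.1 CPM in flox/flox libraries. The groups did not overlap for either gene, and the differences were 1.41 ± 0.25 and 1.09 ± 0.17 (log2, SE; adjusted p = 0.00506 and 0.00258, edgeR). Neuropilins together came to 34.6 ± 9.38 TPM in -/- libraries and 14.5 ± 3.09 TPM in flox/flox libraries (SD, n = 3), while class 3 semaphorins came to 13.2 ± 0.872 TPM in -/- libraries and 68.2 ± 15.2 TPM in flox/flox libraries.

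Plexins had smaller differences, between -0.66 and 0.62 on the log2 scale. Plxna1, a partner of neuropilins, was the most abundant plexin per length over all libraries. It rose to 492, 508 and 537 CPM in -/- libraries, against 378, 410 and 382 CPM in flox/flox libraries (0.39 ± 0.06, log2, SE). In flox/flox libraries its mean of 92.6 TPM lay just under the 94.1 TPM of Plxnb2. Of the exonic bases of Plxna1, 10.7% overlap another gene. Plxna4, which also pairs with neuropilins, was at 25.8, 28.0 and 43.0 CPM in -/- libraries and 21.2, 20.1 and 21.7 CPM in flox/flox libraries, and its rise was not called without any 1 of the 3 flox/flox libraries (adjusted p between 0.0609 and 0.114, edgeR) or with limma-voom (0.0584). Plxnb2, a receptor of class 4 semaphorins in proliferating progenitors, fell, with 259, 247 and 240 CPM in -/- libraries and 382, 323 and 310 CPM in flox/flox libraries. Plxnd1, the receptor of Sema3e, fell too, with 9.45, 8.34 and 8.13 CPM in -/- libraries and 12.0, 15.5 and 13.4 CPM in flox/flox libraries. Sema3e and its receptor were thus both lower in the libraries labelled -/-.

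Plxna2, Plxna3, Plxnb1 and Plxnc1 did not pass, with log2 differences between 0.21 and 0.52. When column letters were blocked, Plxna3 (adjusted p = 0.00447), Plxnb1 (0.0117) and Plxnc1 (0.0304) passed in edgeR, and Plxna3 also without -/- A (0.0183), with no filter (0.0302) and with DESeq2 (0.0261). A-class plexins summed to 139, 152 and 171 TPM in -/- A, B and C and 114, 125 and 122 TPM in flox/flox libraries. B-class plexins summed to 111, 115 and 117 TPM in -/- libraries and 144, 134 and 135 TPM in flox/flox libraries. The A class was thus higher and the B class lower in all 3 -/- libraries than in any flox/flox library.

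**Figure D2:**
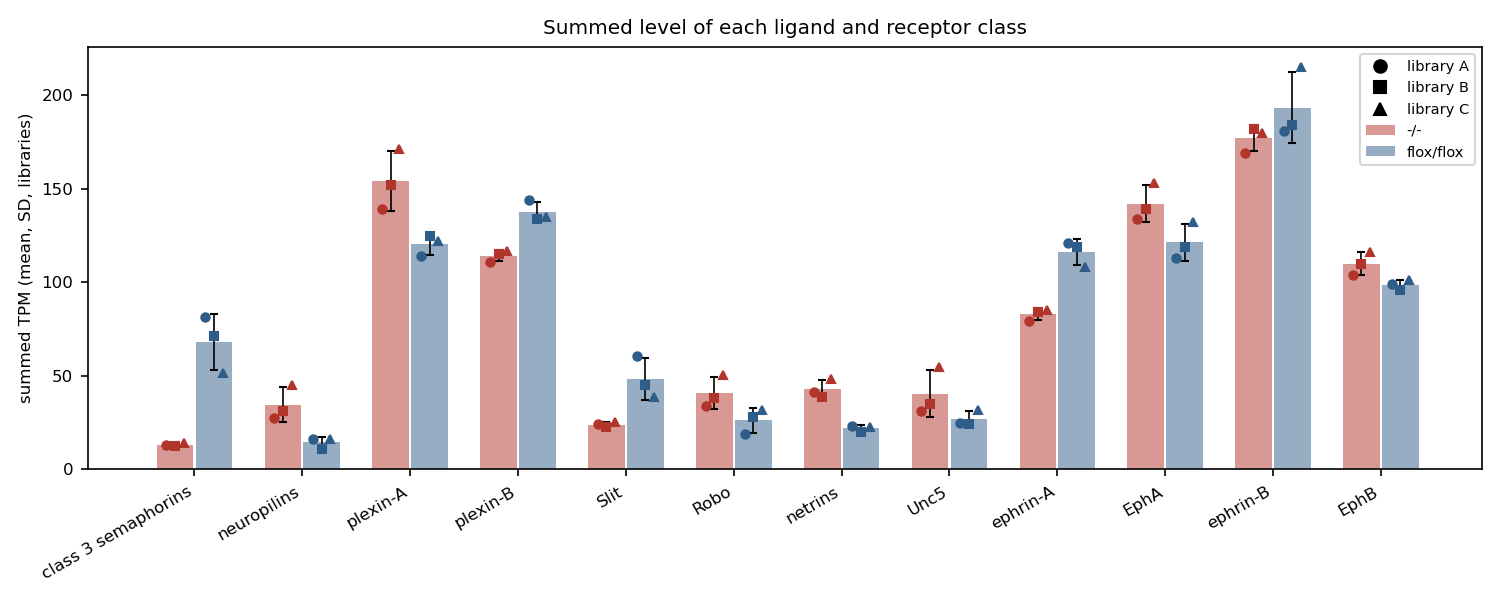
Summed TPM of 12 ligand and receptor classes, with bars for the mean, error bars for the SD and symbols for libraries A, B and C, -/- in red and flox/flox in blue. Class 3 semaphorins averaged 13.2 TPM in -/- libraries and 68.2 TPM in flox/flox libraries, and Slits averaged 24.0 TPM in -/- libraries and 48.2 TPM in flox/flox libraries, while neuropilins, Robos and netrins were higher in -/- libraries.

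Among Eph receptors, the receptor tyrosine kinases that bind ephrins, 12 of 14 changed, 8 upward and 4 downward, and the A class exchanged its leading gene. Epha3 (chromosome 16, 63543534 to 63864175, minus strand), a receptor of ephrin-A ligands, had 282, 291 and 342 CPM in -/- libraries and 49.9, 69.9 and 124 CPM in flox/flox libraries. Epha4 (chromosome 1, 77367185 to 77515088, minus strand), which binds ephrins of both classes, had 60.2, 59.3 and 62.3 CPM in -/- libraries and 169, 154 and 169 CPM in flox/flox libraries. Epha3 rose by 1.91 ± 0.30 and Epha4 fell by 1.43 ± 0.06 on the log2 scale (adjusted p = 0.00292 and 6.23e-05, edgeR). The libraries of each group lay close together for Epha4, whereas Epha3 was higher in flox/flox C than in flox/flox A and B.

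Per length, Epha3 made up between 49.3% and 52.9% of the summed A-class level in -/- libraries and between 10.7% and 23.5% in flox/flox libraries. For Epha4 the share was between 10.4% and 11.3% in -/- libraries and between 34.6% and 39.2% in flox/flox libraries. The sum of the class was 142 ± 10.2 TPM in -/- libraries and 121 ± 9.30 TPM in flox/flox libraries (SD, n = 3). Epha7, the second A-class receptor by level in -/- libraries, was at 29.5, 28.4 and 24.7 TPM there and at 21.4, 24.2 and 23.5 TPM in flox/flox libraries. Its rise of 0.32 on the log2 scale was not called without -/- A, -/- B or flox/flox A (adjusted p between 0.0540 and 0.0670, edgeR).

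**Figure D3:**
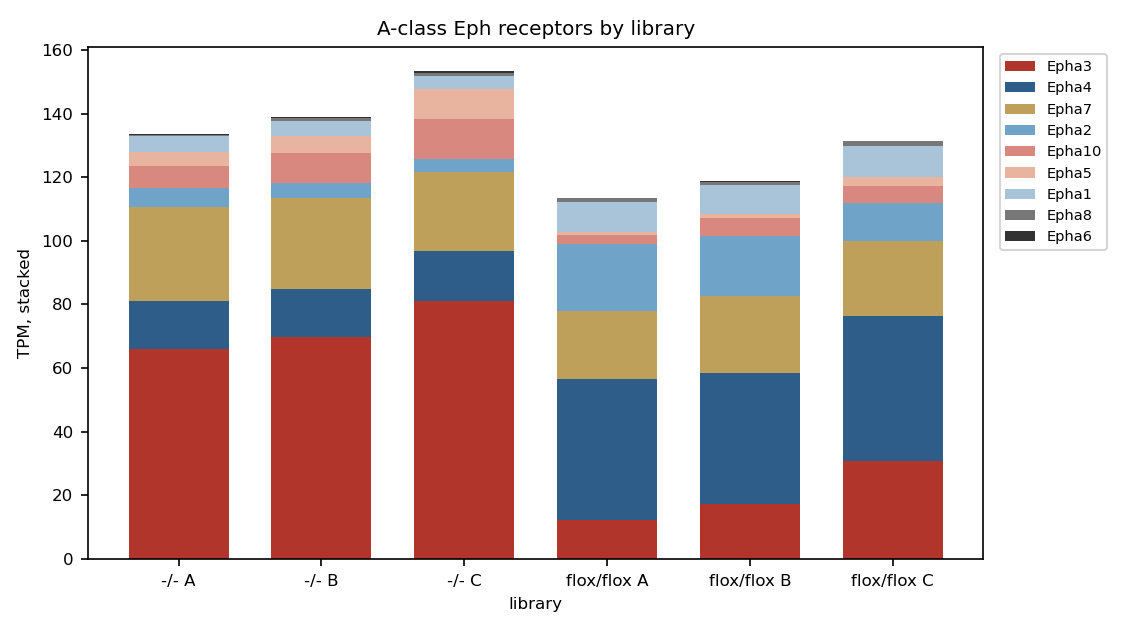
Stacked TPM of the 9 A-class Eph receptors in each library, -/- on the left and flox/flox on the right. Epha3 (red) fills between 49.3% and 52.9% of each -/- bar, and Epha4 (dark blue) between 34.6% and 39.2% of each flox/flox bar.

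Of the other A-class receptors, Epha5, Epha10 and Epha6 rose. Epha5, an ephrin-A receptor of forebrain neurons, had 35.1, 41.1 and 74.9 CPM in -/- libraries and 7.03, 9.95 and 22.0 CPM in flox/flox libraries, a rise of 1.96 on the log2 scale. Its spread was wide, with library C highest in both groups, and the difference was 2.58 without flox/flox C and 1.80 without flox/flox B, where it was not called (adjusted p = 0.0587, edgeR). Epha10, a receptor without kinase activity, had 24.8, 33.6 and 44.1 CPM in -/- libraries and 10.4, 18.8 and 17.5 CPM in flox/flox libraries. Epha6 rose 3.60-fold at a low level, with 0.762, 1.11 and 1.55 CPM in -/- libraries and 0.304, 0.342 and 0.279 CPM in flox/flox libraries.

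Epha2 and Epha1, receptors known best from epithelia, fell. Epha2 had 13.7, 10.4 and 9.47 CPM in -/- libraries and 45.8, 40.9 and 25.9 CPM in flox/flox libraries (-1.74 ± 0.23, log2, SE). Epha1 had 9.73, 9.27 and 7.92 CPM in -/- libraries and 17.5, 17.0 and 17.8 CPM in flox/flox libraries (-0.96 ± 0.10). The groups did not overlap for either gene. Of 9 markers of epithelium, among them Krt8, Krt18 and Cdh1, 7 fell, and their summed level was between 106 and 209 TPM in -/- libraries and between 342 and 541 TPM in flox/flox libraries. The part of such cells in the falls of Epha1 and Epha2 was not tested. Epha8 did not pass (-0.50 ± 0.25, log2, SE).

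B-class receptors, which bind the transmembrane ephrins, changed in 4 of 5 members, with 3 higher and 1 lower. Ephb2, the most abundant Eph receptor per length over all libraries, had 357, 366 and 447 CPM in -/- libraries and 214, 235 and 281 CPM in flox/flox libraries. By group mean, Epha3 led in -/- libraries (72.2 TPM, Ephb2 63.6 TPM) and Epha4 in flox/flox libraries (43.7 TPM, Ephb2 41.5 TPM). Ephb1 was at 18.8, 19.6 and 24.6 CPM in -/- libraries and 7.97, 11.2 and 13.5 CPM in flox/flox libraries. Ephb6, whose product lacks kinase activity, was at 19.3, 19.5 and 21.7 CPM in -/- libraries and 14.8, 13.3 and 14.9 CPM in flox/flox libraries. Ephb2, Ephb1 and Ephb6 rose, by 0.68, 0.95 and 0.49 on the log2 scale. Ephb4, the partner of ephrin-B2 in vessels, fell, with 60.1, 60.6 and 44.5 CPM in -/- libraries and 100, 84.0 and 73.5 CPM in flox/flox libraries (-0.64 ± 0.15, log2, SE). Ephb3 did not pass (-0.18 ± 0.12). Of the endothelial markers Tie1, Cldn5 and Emcn were under 1 CPM in every library, and among 7 tested Flt1 and Sox17 rose (1 of them without -/- A, -/- B or flox/flox B) and Kdr fell. The 10 markers summed to between 8.90 and 19.8 TPM in -/- libraries and between 25.6 and 28.6 TPM in flox/flox libraries. The median log2 difference of the 7 tested was 0.01, while Kdr averaged 4.08 CPM in -/- libraries and 53.4 CPM in flox/flox libraries. The part of endothelial cells in the fall of Ephb4 was not tested.

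Promoter sequences of 4 A-class receptor genes are shown because genes of 1 receptor class moved in opposite directions, Epha3 and Epha6 upward and Epha4 and Epha1 downward. They are the 250 bases before the start of the gene, 5′ to 3′ on the strand of the gene, from RefSeq on GRCm38.p6, with capitals for a match to CAGATG or its reverse complement CATCTG, the E-box that proneural bHLH factors of the Neurog and Neurod families bind.
Epha3 (higher, chr16:63864176-63864425, minus strand): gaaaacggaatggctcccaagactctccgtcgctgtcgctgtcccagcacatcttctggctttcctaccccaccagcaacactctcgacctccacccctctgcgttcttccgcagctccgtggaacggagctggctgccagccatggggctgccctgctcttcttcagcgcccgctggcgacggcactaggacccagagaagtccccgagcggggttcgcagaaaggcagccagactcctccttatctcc
Epha6 (higher, chr16:60605532-60605781, minus strand): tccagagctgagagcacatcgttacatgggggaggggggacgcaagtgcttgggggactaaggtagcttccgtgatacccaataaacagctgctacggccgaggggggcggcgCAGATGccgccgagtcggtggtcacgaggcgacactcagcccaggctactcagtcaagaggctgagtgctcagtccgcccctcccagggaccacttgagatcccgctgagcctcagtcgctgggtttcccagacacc
Epha4 (lower, chr1:77515089-77515338, minus strand): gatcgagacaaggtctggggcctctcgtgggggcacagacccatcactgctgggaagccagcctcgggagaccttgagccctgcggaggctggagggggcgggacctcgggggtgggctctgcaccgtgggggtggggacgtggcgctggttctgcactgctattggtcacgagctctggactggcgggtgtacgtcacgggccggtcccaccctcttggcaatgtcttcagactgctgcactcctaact
Epha1 (lower, chr6:42373269-42373518, minus strand): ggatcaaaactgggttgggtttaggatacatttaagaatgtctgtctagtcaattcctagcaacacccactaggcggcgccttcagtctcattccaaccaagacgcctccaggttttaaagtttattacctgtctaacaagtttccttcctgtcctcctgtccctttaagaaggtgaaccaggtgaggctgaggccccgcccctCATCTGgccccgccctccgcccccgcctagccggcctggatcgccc
A window was found for 57 of the 67 members, 11 of them with several starts. The E-box was present before 5 of the 57 genes (8.77%), against 16.3% of 27025 genes in the whole table. Of the genes that rose, 2 of 20 had it (Epha6 and Sema4a), and of those that fell 2 of 15 (Epha1 and Sema3c). The genes shown above were picked by hand and include Epha6 and Epha1, so they do not stand for the A-class receptors. Epha5, Epha7 and Epha10, which also rose, and Epha2, which also fell, are not shown. The core of the sites bound by Dmrt proteins, ACATTGT or ACAATGT, was present before 2 of the 57 genes (3.51%), Sema4d and Plxnb3, against 2.96% of all genes. Both strands were searched, and no member held both motifs. A match is a string of letters and not a measured binding site.

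Ephrins, the ligands of Eph receptors, fell in 4 of 8 genes and rose in 1. Efna5, a membrane-anchored ligand that patterns cortical and retinal projections (chromosome 17, 62604184 to 62881317, minus strand), was at 39.2, 37.2 and 40.2 CPM in -/- libraries and 100, 88.6 and 63.0 CPM in flox/flox libraries. Efnb2, a transmembrane ligand, was at 76.4, 77.0 and 67.7 CPM in -/- libraries and 138, 131 and 148 CPM in flox/flox libraries. The -/- libraries lay close together for both genes, and the differences were -1.11 ± 0.16 and -0.92 ± 0.07 (log2, SE; adjusted p = 0.00196 and 0.000381, edgeR). Efna1 fell at a level of 1.12, 0.709 and 0.985 CPM in -/- libraries and 2.50, 1.37 and 1.87 CPM in flox/flox libraries, and Efna4 at 17.0, 18.3 and 18 CPM in -/- libraries and 22.2, 20.6 and 20.7 CPM in flox/flox libraries.

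These last 2 calls rested on the full set of libraries, and 10.5% of the exonic bases of Efna4 overlap another gene. The call of Efna4 was lost without any 1 of the 6 libraries (adjusted p between 0.0585 and 0.106, edgeR) and with no filter (0.0969), and that of Efna1 without -/- B, -/- C, flox/flox A or flox/flox C (between 0.0505 and 0.0938). The family held 3 calls in place of 5 without -/- B, flox/flox A or flox/flox C. Efnb3, on chromosome 11, was the ephrin that rose, to 126, 136 and 158 CPM in -/- libraries, against 102, 103 and 106 CPM in flox/flox libraries (0.43 ± 0.09). Of the 1589 genes tested on chromosome 11, 59.6% rose, and their offset relative to other genes was 0.516 on the log2 scale. With that offset taken out the difference of Efnb3 was -0.09 and did not pass (adjusted p = 0.474, edgeR).

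Efnb1, the second most abundant ephrin per length over all libraries, did not pass, at 65.8, 69.8 and 57.6 TPM in -/- libraries and 70.1, 72.5 and 95.8 TPM in flox/flox libraries. Efna2 and Efna3 did not pass either, with log2 differences of 0.11 and -0.35. Efna3, of which 14.1% of the exonic bases overlap another gene, passed when column letters were blocked (adjusted p = 0.0392, edgeR), without -/- C (0.0336), and with DESeq2 (0.0427), limma-voom (0.0429), upper-quartile scaling (0.0451) or the filter of 1 CPM (0.0492). Summed per length, ephrin-A genes came to 83.0 ± 3.11 TPM in -/- libraries and 116 ± 7.13 TPM in flox/flox libraries (SD, n = 3), with no overlap between the groups. Ephrin-B genes came to 177 ± 7.25 TPM in -/- libraries and 193 ± 19.1 TPM in flox/flox libraries, where the groups overlapped. Efnb3, on chromosome 11, supplied between 47.5% and 56.7% of that sum in -/- libraries and between 33.6% and 38.1% in flox/flox libraries. The offset of that chromosome was not taken out of the sum, so its overlap cannot be set against the ephrin-A sum. The summed levels of A-class receptors and ligands thus lay on opposite sides of the control, at 1.17 and 0.716 times the flox/flox mean. This does not hold for each receptor, since 5 of the 9 A-class receptors rose and 3 fell. Epha3 alone averaged 72.2 TPM in -/- libraries and 20.1 TPM in flox/flox libraries. The receptor sums also came close, at 134 TPM in -/- A and 132 TPM in flox/flox C.

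Slits, the secreted midline repellents, changed in all 3 genes and not in the same direction. Slit2 (chromosome 5, 47983138 to 48307733, plus strand) had 120, 98.4 and 94.2 CPM in -/- libraries and 453, 358 and 280 CPM in flox/flox libraries. Slit3 (chromosome 11, 35121224 to 35708507, plus strand) had 7.80, 5.73 and 5.31 CPM in -/- libraries and 38.7, 17.9 and 19.9 CPM in flox/flox libraries. Slit1 had 35.0, 35.8 and 45.4 CPM in -/- libraries and 25.7, 23.7 and 21.5 CPM in flox/flox libraries. Slit2 and Slit3 fell by 1.80 ± 0.18 and 2.02 ± 0.31 and Slit1 rose by 0.71 ± 0.12 on the log2 scale (adjusted p = 0.000602, 0.00281 and 0.00398, edgeR), and for none of the 3 did the groups overlap. The fall of Slit3, a gene of chromosome 11, was -2.53 with the offset of that chromosome taken out and -1.58 without flox/flox A, the library with the highest level.

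Slit1 made up between 49.5% and 62.6% of the summed Slit level per length in -/- libraries and between 15.2% and 20.2% in flox/flox libraries. Slit2 made up between 30.3% and 39.7% in -/- libraries and between 61.4% and 66.9% in flox/flox libraries. Per length the leading Slit was therefore Slit1 in -/- libraries and Slit2 in flox/flox libraries. This order rests on exon lengths of 5921 bases for Slit1 and 25433 for Slit2, which take in all annotated isoforms, and by CPM Slit2 was above Slit1 in every library. The sum was 24.2, 22.6 and 25.2 TPM in -/- libraries and 60.6, 45.3 and 38.9 TPM in flox/flox libraries.

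Of the Slit receptors, Robo1 rose and the other 2 did not pass. Robo1 (chromosome 16, 72308306 to 73046095, plus strand) had 142, 145 and 220 CPM in -/- libraries and 80.9, 82.5 and 82.4 CPM in flox/flox libraries, a difference of 1.04 ± 0.16 (log2, SE; adjusted p = 0.00283, edgeR). The control libraries were nearly equal and -/- C stood above -/- A and B. Robo2 was at 57.4, 54.5 and 67.4 CPM in -/- libraries and 40.1, 45.2 and 55.9 CPM in flox/flox libraries, and passed when column letters were blocked (adjusted p = 0.00685, edgeR) and without flox/flox C (0.0158). Robo3, the divergent receptor of commissural neurons, was at 32.6, 43.6 and 49.2 CPM in -/- libraries and 11.7, 36.2 and 43.6 CPM in flox/flox libraries, where flox/flox A stood apart and the groups overlapped.

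In the netrin system 3 of 8 genes rose, and the other 5 did not pass. That share of 37.5% lies near the 35.3% of all genes tested and under the 41.4% of expressed protein-coding genes. Ntn1 (chromosome 11, 68209364 to 68400823, minus strand), which encodes the floor plate attractant netrin-1, had 85.1, 68.7 and 85.8 CPM in -/- libraries and 17.0, 17.2 and 28.3 CPM in flox/flox libraries. The difference of 1.94 ± 0.21 (log2, SE; adjusted p = 0.000725, edgeR) was 1.43 with the chromosome 11 offset taken out and still passed. Its receptor gene Dcc had 98.6, 103 and 142 CPM in -/- libraries and 51.4, 46.0 and 67.3 CPM in flox/flox libraries (1.06 ± 0.18). Unc5b, a repulsive netrin receptor, had 67.6, 71.8 and 120 CPM in -/- libraries and 41.8, 44.8 and 57.2 CPM in flox/flox libraries, and its rise of 0.85 was not called without flox/flox A or flox/flox B (adjusted p = 0.0760 and 0.0883, edgeR).

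Neo1, a receptor of netrins and of repulsive guidance molecules and the most abundant gene of the family, was nearly level, at 58.4, 58.4 and 61.9 TPM in -/- libraries and 58.6, 56.9 and 57.0 TPM in flox/flox libraries. Ntn4, a laminin-related netrin of basement membranes, Unc5a, Unc5c and Unc5d did not pass, with log2 differences between 0.18 and 0.53. Without flox/flox C, Unc5a and Unc5d were called (adjusted p = 0.0307 and 0.0176, edgeR), which gives 5 calls in the family, and Unc5d was called when column letters were blocked (0.0343). Summed netrins came to 41.6, 38.7 and 48.1 TPM in -/- libraries and 23.3, 20.1 and 22.6 TPM in flox/flox libraries. Ntn1 supplied between 58.6% and 66.1% of the sum in -/- libraries and between 24.6% and 43.3% in flox/flox libraries, so that the leading netrin was Ntn1 in all 3 -/- libraries and Ntn4 in all 3 flox/flox libraries. Of the floor plate, a tissue known to secrete netrin-1, 5 of 6 markers tested rose and 1, Sulf1, fell, while Nkx2-2 and Ferd3l were under 1 CPM in every library. Shh averaged 27.3 CPM in -/- libraries and 1.29 CPM in flox/flox libraries. The 8 markers summed to between 40.1 and 52 TPM in -/- libraries and between 68.4 and 172 TPM in flox/flox libraries, a sum in which Sulf1 stood at 36.5 to 56.2 CPM in -/- libraries and 308 to 867 CPM in flox/flox libraries. The part of such cells in the rise of Ntn1 was not tested.

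**Figure D4:**
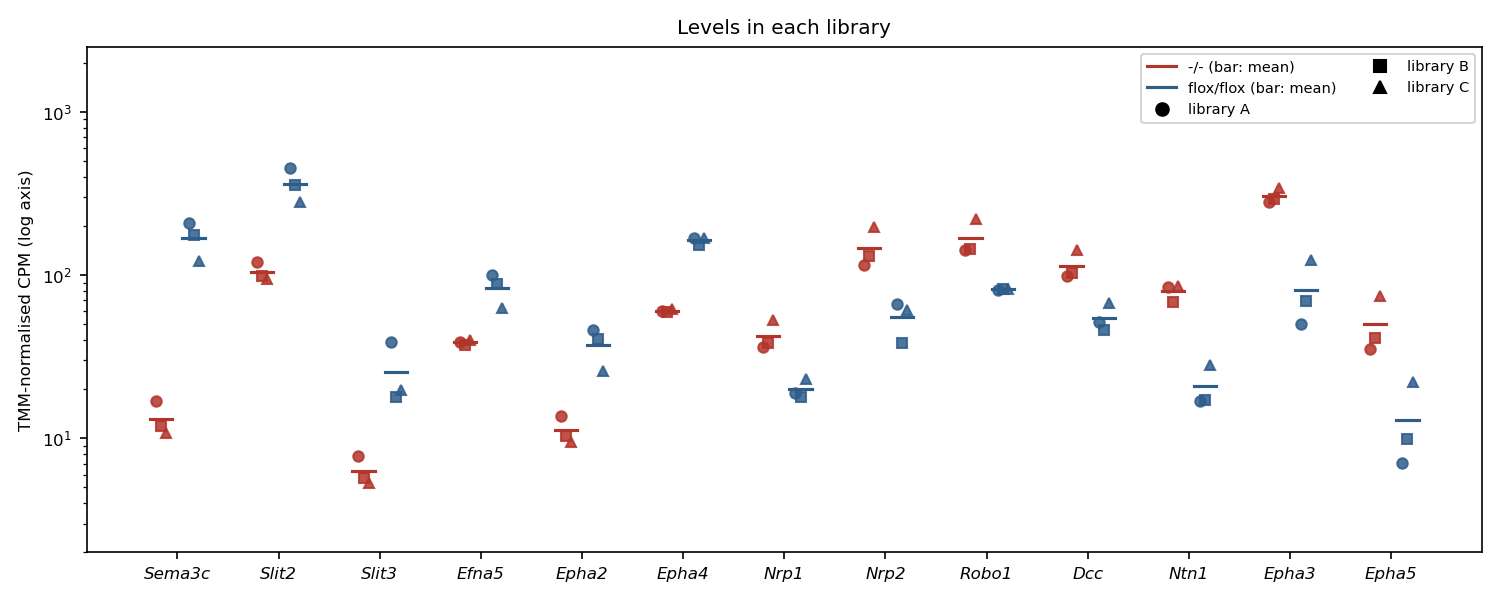
TMM-normalised CPM (log axis) of 13 members in each library, -/- in red to the left of flox/flox in blue, with circles, squares and triangles for libraries A, B and C and a line for the mean. The 13 were chosen among members that rose or fell, and the groups do not overlap for any of them. Over all genes tested the groups do not overlap for 51.0%. Among -/- libraries, triangles (library C) are highest for Nrp1, Nrp2, Robo1, Dcc, Ntn1, Epha3 and Epha5, which rose. They are also highest for Efna5 and Epha4, which fell.

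The members that rose shared an order of libraries within the -/- group. In 25 of the 26, -/- C was the highest of the 3 -/- libraries, and in 24 of the 26 -/- A was the lowest, the order of the summed neuron markers (1570, 1770 and 2560 TPM). Among the flox/flox libraries flox/flox C was highest in 16 of the 26, and it was also highest for the neuron markers. Of the 23 members that did not pass, 20 were highest in -/- C as well, and 16 were lowest in -/- A. How often this order occurs over all genes was not counted, so it cannot be called particular to the members that rose. The part of neuron number in the rises was not tested.

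The members that fell had another order. Among the 17, -/- C was lowest of its group in 12, and flox/flox A was highest of its group in 11. Markers of the cortical hem and choroid plexus, dorsal midline tissues, fell in 10 of 12 and summed to 174, 163 and 135 TPM in -/- libraries and 1020, 673 and 655 TPM in flox/flox libraries. Markers of mesenchyme fell in 7 of 12 (4 without -/- B) and rose in 1 (between 0 and 2 with single libraries left out), with sums between 93.6 and 140 TPM in -/- libraries and between 218 and 527 TPM in flox/flox libraries. Sema3c, Slit2 and Slit3 were likewise highest in flox/flox A. The part of either cell type in their falls was not tested. Markers of Cajal-Retzius cells rose in 5 of 8, namely Calb2, Lhx1, Lhx5, Ebf3 and Nhlh2. They fell in 2, Reln and Trp73, with log2 differences of -0.75 and -2.36. The 8 markers summed to between 256 and 391 TPM in -/- libraries and between 127 and 189 TPM in flox/flox libraries. Markers of neural crest rose in 2 of 7 tested (1 without flox/flox B or C) and fell in 3, with sums between 30.5 and 55.9 TPM in -/- libraries and between 31.9 and 38.2 TPM in flox/flox libraries and Sox10 and Foxd3 under 1 CPM in every library. Genes of pluripotent cells fell in 3 of 7 tested (1 without flox/flox A or B) and summed to between 61.3 and 87.8 TPM in -/- libraries and between 109 and 117 TPM in flox/flox libraries.

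Beyond the 4 families, further guidance cues and adhesion co-receptors rose in 17 of 40 and fell in 8 (8 and 7 without flox/flox B), with a median log2 difference of 0.32. Over all genes tested, 17.9% rose and 17.4% fell, and of expressed protein-coding genes 41.4% changed. The neural adhesion gene Chl1, a co-receptor for class 3 semaphorins, had 59.8 CPM in -/- libraries and 6.93 CPM in flox/flox libraries on average (3.11 ± 0.37, log2, SE), Spon1, which is also in the floor plate list, rose 7.72-fold and Islr2, which is needed for axon extension, 3.83-fold. Alcam, an adhesion molecule of growing axons, fell 4.04-fold, Plxdc2 3.28-fold and the proteoglycan gene Gpc1 1.44-fold (adjusted p between 0.000382 and 0.00171 for these 6, edgeR).

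Intracellular effectors of guidance signalling divided evenly, with 19 of 60 higher and 17 lower and a median of 0.06. Without flox/flox B these counts were 12 and 10, and without -/- B 16 and 11. The shares over all genes tested were 17.9% higher and 17.4% lower, and 41.4% of expressed protein-coding genes changed. The unconventional myosin gene Myo10, a carrier of DCC into filopodia, rose 1.42-fold, Rnd2, a small GTPase of migrating neurons, 3.17-fold and Pitpna, a lipid transfer protein that binds DCC, 1.34-fold. Rnd2 and Pitpna lie on chromosome 11. With the offset of that chromosome taken out, 16 effectors were higher, Rnd2 still passed at 1.15 on the log2 scale (adjusted p = 0.00563, edgeR), and Pitpna was at -0.09 and did not pass (adjusted p = 0.309, edgeR). Vasp, which promotes actin filament growth, fell by 0.58 on the log2 scale, the Rac activator gene Elmo1 1.47-fold and Rasa1, a Ras inhibitor that binds Eph receptors, 1.42-fold. Adjusted p for these 6 lay between 0.000833 and 0.00301 in edgeR.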

How the data were processed

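RNA was sequenced from 6 libraries, 3 labelled -/- and 3 flox/flox. The authors deposited raw read counts for each Ensembl gene. BWA 0.5.9, featureCounts 1.4.6 and mm10 (GRCm38) are named in the submitters' processing notes, and the table's name says that duplicates were marked. Whether duplicates or multiply mapped reads were counted, the strand setting and the annotation release are not stated in the sources. The kit was a stranded mRNA kit per the labels' protocols, but reads of overlapping genes may not be separable.

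Columns carry a genotype and a letter and the labels carry replicate numbers, so each column was assigned to a group only, and 0 columns were left out. Symbols, positions and exon lengths came from GENCODE M21. Counts were tested with edgeR 4.0.16 in R 4.3.3 (filterByExpr with a minimum count of 10 and total of 15, TMM, quasi-likelihood test, two-sided, group alone), adjusted over 20549 genes at a threshold of 0.05. The standard error is the log2 difference over the square root of F. TPM uses the union of a gene's annotated exons, so genes with long rare isoforms read low. The procedure was tested on simulated counts. The common biological coefficient of variation was 0.123.

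Libraries of a group differed beyond sampling noise (chi-square per gene between 5.47 and 29.8) and were kept separate. Same-lettered columns of both groups deviated together (r = 0.353, 0.139 and 0.34 for A, B and C, across genes), so the letter was also fitted as a block.

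Alternatives were other scalings (DESeq2 size factors, upper quartile), no filter or 1 CPM in 3 libraries, each library left out, DESeq2 1.42.0, limma-voom (limma 3.58.1), a threshold of 0.01 and an offset for chromosome 11. Members, pathway lists and marker lists were chosen with earlier results of these data known. Library values are given for up to 5 called members per family and direction in order of adjusted p and for the 2 most abundant per family, and from each pathway list up to 3 genes per direction are named. Library values of further members and the marker genes named were chosen after their values were seen.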

Additional observations from a re-analysis of the deposited data

How the results depend on the processing

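Of the 43 calls among members, 31 held at a threshold of 0.05 in every alternative that tested the gene. The alternatives were every scaling, filter, test, offset and left-out library, and the replicate block. The other 12 were lost in at least 1 of these. Epha6 and Sema3g, counted among the 31, did not reach 1 CPM in 3 libraries and were not tested with that filter. At a threshold of 0.01, 15 members were higher and 12 lower, with 3 ephrins, 5 semaphorins, 13 further cues and co-receptors, 19 effectors and 3887 genes in all. With single libraries left out, calls ranged from 20 to 30 (higher) and 13 to 15 (lower) for members, 3 to 4 for ephrins, 2 to 5 for netrins and their receptors, 9 to 14 for semaphorins, 15 to 25 for further cues, 22 to 38 for effectors and 4717 to 6846 for all genes. The fewest calls came without flox/flox B for further cues, effectors and all genes. In the paired fit with the replicate block, 34 members were higher and 17 lower, and 8529 genes (41.5%) were called. It called 9 further members and lost Sema4d, and changed no other call among members. With the chromosome 11 offset Efnb3 reversed, to -0.09. Efna1, Epha6 and Sema3g rest on few reads, 254, 138 and 136 over all libraries. The causes of these differences were not tested.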
